A study of Mus musculus with 6 samples.

Results

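Insulin-like growth factor 1 (Igf1), its receptor Igf1r and 6 IGF-binding proteins (Igfbp2 to Igfbp7) were described in articular cartilage of mice aged 2 and 18 months. The 8 genes were chosen by name from a table of 33971 genes. All 8 passed the filter on low counts that left 20397 genes to be tested. RNA sequencing of polyadenylated transcripts had been done on 3 libraries labelled articular cartilage of 2-month-old mice and 3 of 18-month-old mice, and the comparison asked which transcripts differed with age. All 6 libraries carried the wildtype genotype (WT), with no treatment named in the labels. The methods of the study give the mice as male. The labels do not say whether each library came from its own animal or from pooled animals, so p-values measure the spread between these libraries only.

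IGF1 is a secreted growth factor that binds a receptor tyrosine kinase at the cell surface, and in cartilage it is known for driving chondrocytes to make proteoglycan and collagen. The binding proteins are secreted too, and hold IGFs in the circulation or in the matrix, where they can block or prolong the access of the ligand to its receptor. Proteases outside the cell cut the binding proteins and release the ligand. The receptor passes its signal through IRS adaptor proteins to the PI3-kinase and AKT enzymes.

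The libraries held between 48171507 and 59085179 counts. Genes that mark chondrocytes were nearly lost from the 18-month libraries: the summed FPKM (fragments per transcript length and library size) of 10 markers, led by Col2a1, was 5000 to 7134 at 2 months and 40.3 to 144.5 at 18 months. For 8 neutrophil markers, led by S100a9, the sum lay between 6.25 and 3395 at 2 months and between 39740 and 44300 at 18 months. For 6 erythroid markers, led by Hbb-bs, it lay between 160.8 and 4116 and between 17040 and 23000. The 18-month libraries thus went against their cartilage label in these markers. Libraries also stood apart within an age. The 2-month replicate 2 held the highest neutrophil and erythroid sums of its age, as it did for 6 marrow stroma markers, led by Cxcl12 (68.4 against 6.45 and 6.96). The 18-month replicate 1 held the highest chondrocyte sum of its age (144.5 against 40.3 and 41.1). Counts of Xist, a transcript of female cells, ranged from 88239 to 102417 at 2 months and from 11 to 30 at 18 months. The 2-month libraries thus went against the male sex given in the methods, and age and sex cannot be told apart here. In bulk RNA, fewer cells of a type and less RNA per cell cannot be told apart either.

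The start regions of 3 binding protein genes are printed because Igfbp3 and Igfbp4 had the highest log2 fold changes of the 8 genes and Igfbp7 the smallest standard error. Each holds 250 bases before and 50 after the start site of RefSeq on GRCm38.p6, written 5' to 3' on the strand of the gene, with motif matches in capitals. The region of Igfbp3 is chr11:7213874-7214173 on the minus strand, that of Igfbp4 chr11:99040994-99041293 on the plus strand, and that of Igfbp7 chr5:77407996-77408295 on the minus strand.
Igfbp3: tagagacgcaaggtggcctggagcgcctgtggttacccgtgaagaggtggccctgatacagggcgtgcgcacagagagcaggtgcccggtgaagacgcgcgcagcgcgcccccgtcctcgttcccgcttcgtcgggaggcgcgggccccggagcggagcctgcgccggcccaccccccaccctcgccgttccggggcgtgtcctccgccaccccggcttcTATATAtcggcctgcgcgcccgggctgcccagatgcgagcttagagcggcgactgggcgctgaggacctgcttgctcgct
Igfbp4: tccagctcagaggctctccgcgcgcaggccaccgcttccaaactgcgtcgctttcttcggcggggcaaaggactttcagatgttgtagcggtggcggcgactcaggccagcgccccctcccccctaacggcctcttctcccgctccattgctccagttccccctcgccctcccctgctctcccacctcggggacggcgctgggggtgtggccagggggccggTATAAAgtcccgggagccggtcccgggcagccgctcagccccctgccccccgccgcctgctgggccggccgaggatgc
Igfbp7: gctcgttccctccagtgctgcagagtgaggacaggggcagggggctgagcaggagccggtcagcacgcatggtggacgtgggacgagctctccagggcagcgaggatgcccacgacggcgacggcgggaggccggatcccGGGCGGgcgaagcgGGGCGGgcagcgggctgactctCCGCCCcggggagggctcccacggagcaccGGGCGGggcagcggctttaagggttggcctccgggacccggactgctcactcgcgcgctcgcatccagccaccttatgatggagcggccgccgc
The motifs searched on both strands were TATAAA and TATATA, which are spellings of a TATA box, and GGGCGG, the GC box. Igfbp4 held TATAAA beginning 28 bases before the start, and Igfbp3 held TATATA beginning 30 bases before it. Igfbp7 held no TATA spelling and 4 GC boxes, of which 3 were on its own strand. Of 32851 mouse promoters in the same table, 17.1% held either TATA spelling (13.6% TATAAA and 5.67% TATATA) and 35.7% held a GC box. These shares count a match anywhere in the window on either strand. The share with a TATA spelling at positions like those in Igfbp3 and Igfbp4 was not counted. Among the other members, Igf1r held 2 GC boxes, 1 of the 2 Igfbp2 entries held 3, Igfbp6 held 1 TATAAA on the opposite strand, and the windows of Igf1 and Igfbp5 held none of the 3 motifs. The RefSeq start of Igf1 lay 2846 bases from the start of the gene in the deposited table. The GC content was 71.7% for Igfbp3, 71.3% for Igfbp4 and 73.3% for Igfbp7, against a median of 52.7% over all promoters.

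With age, Igfbp4 rose and Igf1r, Igfbp6 and Igfbp7 fell, while Igf1, Igfbp2, Igfbp3 and Igfbp5 did not pass the test. Calls needed an adjusted p-value under 0.05 together with a log2 fold change, 18-month against 2-month, above 1 or below -1 (edgeR's quasi-likelihood test, Benjamini-Hochberg adjustment over the 20397 genes). Thus 4 of 8 members were called, against 36.3% of all genes tested. By direction, 1 member was called higher, against 14.9% of all genes, and 3 lower, against 21.3%. In 2 members, Igfbp3 and Igfbp4, every 18-month library lay above every 2-month library, as in 33.9% of all genes. In 3 members, Igf1r, Igfbp6 and Igfbp7, every 18-month library lay below, as in 34.6%. The median log2 fold change was -0.35 over the 8 members and -0.02 over all genes tested. In limma fits the median of all genes was 0.07 with log2(FPKM + 0.1) and -0.33 after rescaling FPKM to the same total in every library (TPM), and each member kept its direction with TPM.

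**Figure D1:**
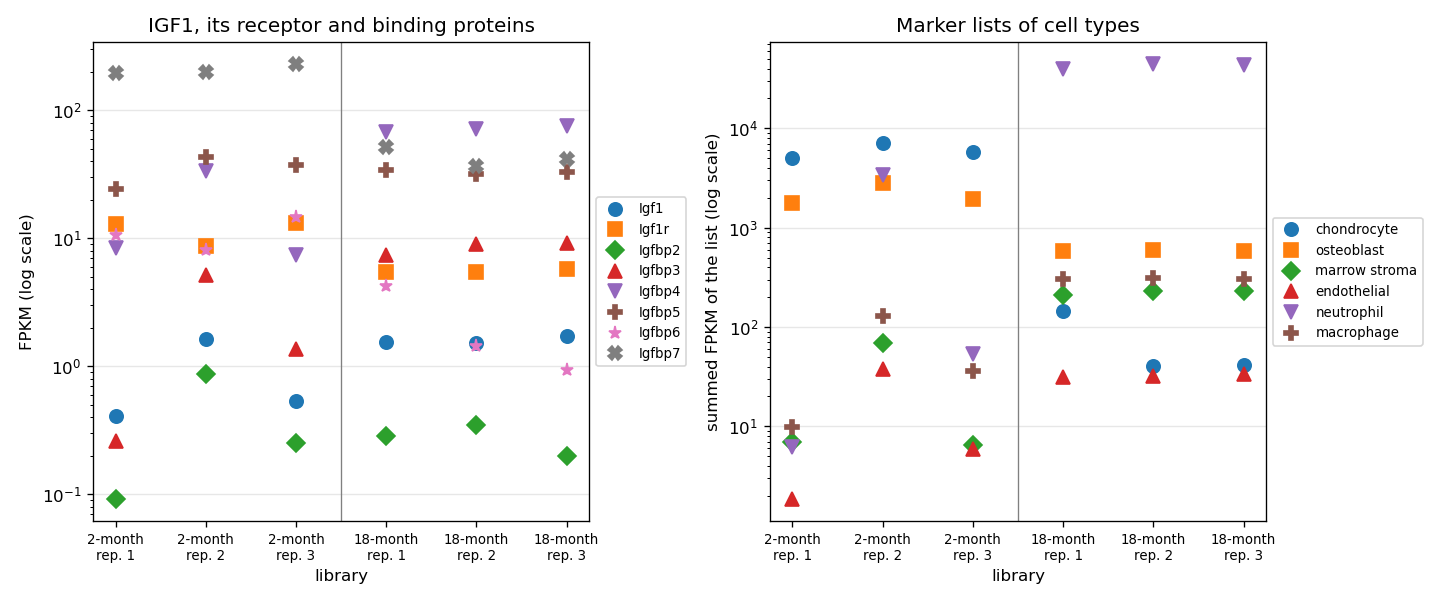
FPKM of the 8 genes on a log10 axis, with 1 point per gene and library (left, n = 3 libraries per age). The right panel gives the summed FPKM of the chondrocyte, osteoblast, marrow stroma, endothelial, neutrophil and macrophage marker lists in each library. Igfbp7 is the most abundant member at 2 months and Igfbp4 at 18 months, and the point of 2-month replicate 2 lies near the 18-month points for Igf1.

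Igf1, the ligand, lies on chromosome 10 from 87858265 to 87937042 (plus strand, ENSMUSG00000020053, GRCm38). Its FPKM was 0.409, 1.64 and 0.534 in 2-month replicates 1, 2 and 3, and 1.56, 1.51 and 1.72 in 18-month replicates 1, 2 and 3. The 2-month replicate 2 stood within the range of the 18-month libraries, at 3.48 times the mean of the other two of its age, so the ages overlapped. Igf1 had a log2 fold change of 0.85 (SE 0.50, 95% interval -0.39 to 2.09), with an adjusted p of 0.201 by edgeR. Without 2-month replicate 2, Igf1 was called higher, with a log2 fold change of 1.66 (edgeR, adjusted p = 0.001). That library also held the highest marrow stroma, neutrophil and erythroid marker sums of its age, and their part in the result was not tested. The antisense gene Igf1os overlaps Igf1 by 5117 bases and held 0 to 4 counts per library.

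Igf1r, the receptor that carries the signal of IGF1, fell 2.21-fold. It lies on chromosome 7 from 67952827 to 68233668 (plus strand, ENSMUSG00000005533). Its FPKM was 12.8, 8.75 and 13.1 in the 2-month libraries and 5.44, 5.43 and 5.81 in the 18-month libraries. The lowest 2-month value, that of replicate 2, was still above every 18-month value. Its log2 fold change was -1.15 (SE 0.22, 95% interval -1.68 to -0.61, edgeR adjusted p = 0.00775). It remained called when any of the 6 libraries was left out, with log2 fold changes of -1.32 to -1.02. The change lay close to the limit of 1. It was -0.92 in limma on log2(FPKM + 1), and a test against a fold change of 2 did not call it (edgeR, adjusted p = 0.27).

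Igf1r transcripts outnumbered Igf1 transcripts per length in every library. The ratio of their FPKM values, taken up after the values had been seen, was 31.4, 5.33 and 24.6 at 2 months and 3.49, 3.59 and 3.39 at 18 months. The 18-month libraries lay together, below the 2-month libraries, with replicate 2 the nearest of the young libraries.

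Igfbp4 rose 4.21-fold and became the most abundant of the 8 genes at 18 months. It codes for a binding protein that is known to inhibit IGF action until it is cut by the protease PAPP-A, and lies on chromosome 11 from 99041244 to 99054392 (plus strand, ENSMUSG00000017493). Its FPKM was 8.47, 33.9 and 7.44 at 2 months and 67.5, 71.3 and 75.2 at 18 months. The 18-month libraries were close to each other, and the lowest was above the highest 2-month value. The log2 fold change was 2.07 (SE 0.59, 95% interval 0.61 to 3.54, edgeR adjusted p = 0.0309). The 2-month replicate 2 was 4.26 times the mean of the other two of its age, and without it the log2 fold change was 3.07 (edgeR, adjusted p = 6.6e-05). Against 2-month replicate 2 alone the 18-month mean was 2.11 times higher. Leaving out any other library, which kept that replicate, ended the call, with log2 fold changes of 1.74 to 2.13 and edgeR adjusted p-values of 0.067 to 0.081.

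Igfbp3 codes for the main IGF carrier of the circulation, and lies on chromosome 11 from 7206086 to 7213923 (minus strand, ENSMUSG00000020427). Its FPKM was 0.260, 5.18 and 1.36 at 2 months and 7.46, 9.0 and 9.13 at 18 months. The ages did not overlap, but the 2-month libraries differed from each other by up to 19.9 times. Igfbp3 had a log2 fold change of 1.89 (SE 0.93, 95% interval -0.41 to 4.19) and was not called (edgeR, adjusted p = 0.136). Without 2-month replicate 2 it was called higher, with a log2 fold change of 3.28 (edgeR, adjusted p = 0.0094). It was also called by limma on log2(FPKM + 1), at 1.85 (adjusted p = 0.027).

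The 3 members that were highest in 2-month replicate 2 relative to its age were Igfbp3, Igfbp2 and Igfbp4, at 6.40, 5.12 and 4.26 times the mean of replicates 1 and 3, followed by Igf1. Marker sums of marrow stroma and macrophages moved with age in the same libraries. For 6 marrow stroma markers the sum was 6.45 to 68.4 at 2 months and 209.2 to 230.6 at 18 months, with 1 of 6 called higher in all libraries and 6 of 6 without 2-month replicate 2. For 7 macrophage markers, led by C1qb, it was 9.90 to 129.1 and 303.0 to 310.4, with 2 of 7 called higher and 6 of 7 without that replicate. For 6 endothelial markers, led by Pecam1, it was 1.85 to 38.0 and 31.3 to 33.9, with 1 of 6 called higher and 5 of 6 without it. The 8 neutrophil and 6 erythroid markers had 0 and 2 called higher, and 8 and 6 without it. Of all genes tested, 14.9% were called higher with all libraries, and 5007 of 21489 without that replicate. Relative to 2-month replicate 2, the 18-month mean was 1.65 times for Igfbp3, 2.11 for Igfbp4, 0.972 for Igf1 and 0.318 for Igfbp2. The part of these cells in the values of Igf1, Igfbp2, Igfbp3 and Igfbp4 was not tested.

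Igfbp7 fell 5.09-fold and showed the smallest standard error of the 8 genes. It codes for a matrix protein related to the family that binds IGFs only weakly, and lies on chromosome 5 from 77349240 to 77408041 (minus strand, ENSMUSG00000036256). Its FPKM was 195.0, 200.3 and 229.8 at 2 months and 51.4, 36.6 and 42.0 at 18 months. The libraries of each age lay close together and far from those of the other age. The log2 fold change was -2.35 (SE 0.17, 95% interval -2.77 to -1.93, edgeR adjusted p = 0.000918). It was called under all 10 alternatives that left out no library and with any 1 library left out, with values between -2.71 and -2.24. Polr2b overlaps Igfbp7 by 85 bases on the opposite strand and held 2725 to 5981 counts, and whether the counting used strand is not given in the sources used here.

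Igfbp6 fell 5.44-fold. It codes for a binding protein that prefers IGF2 over IGF1, and lies on chromosome 15 from 102144362 to 102149511 (plus strand, ENSMUSG00000023046). Its FPKM was 10.7, 8.07 and 14.7 at 2 months and 4.25, 1.44 and 0.929 at 18 months. The ages did not overlap, and the 18-month replicate 1 stood at 3.59 times the mean of the other two of its age. The log2 fold change was -2.44 (SE 0.63, 95% interval -4.0 to -0.89, edgeR adjusted p = 0.022). Without 18-month replicate 1, the library with the highest chondrocyte marker sum of its age, it was -3.30 (edgeR, adjusted p = 0.0072). The call was lost without 2-month replicate 3, 18-month replicate 2 or 18-month replicate 3, with edgeR adjusted p-values of 0.068, 0.078 and 0.053.

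The falls of Igf1r, Igfbp6 and Igfbp7 stood beside falls of chondrocyte markers and of some fibroblast and bone markers. All 10 chondrocyte markers were called lower, with a median log2 fold change of -6.58, and 2 of them had no count in at least 1 of the 18-month libraries. Of 8 markers of superficial zone cells and synovial fibroblasts, led by Prg4, 5 were called lower and 1 higher (summed FPKM 5466 to 7322 and 853.6 to 2062). Of 7 osteoblast markers, led by Ibsp, 4 were called lower (1793 to 2849 and 578.4 to 599.0). Of 5 skeletal muscle markers tested, led by Mylpf, 4 were called lower (6.005 to 28.9 and 3.77 to 5.21). Without 2-month replicate 2 the fibroblast list had 4 called lower and 3 higher (Col1a1, Col1a2 and Thy1), and the osteoblast list 4 lower and 2 higher (Bglap and Phex). Of all genes tested, 21.3% were called lower and 14.9% higher with all libraries. Without that replicate, 4576 of 21489 were called lower and 5007 higher. The part of these markers in the falls of the members was not tested.

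Igfbp5, whose protein binds to the extracellular matrix, kept a high level at both ages. It lies on chromosome 1 from 72857932 to 72874884 (minus strand, ENSMUSG00000026185). Its FPKM was 24.2, 43.3 and 37.3 at 2 months and 34.2, 32.1 and 32.8 at 18 months. The 18-month values lay inside the 2-month range. The log2 fold change was -0.15 (SE 0.20, 95% interval -0.65 to 0.35, edgeR adjusted p = 0.568), an interval that leaves out a change of 2-fold either way. Its sign was reversed without 2-month replicate 2 (0.0032).

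Igfbp2 codes for a binding protein of the circulation, and was the lowest of the 8 genes at both ages. It lies next to Igfbp5 on chromosome 1, from 72824503 to 72852474 (plus strand, ENSMUSG00000039323), with 5457 bases between the genes. Its FPKM was 0.0916, 0.873 and 0.250 at 2 months and 0.285, 0.349 and 0.199 at 18 months, from 10 to 95 counts. The 18-month values lay inside the 2-month range here too. Igfbp2 had a log2 fold change of -0.55 (SE 0.78, 95% interval -2.48 to 1.37, edgeR adjusted p = 0.58), an interval too wide to show a change of 2-fold in either direction or its absence. The sign was reversed without 2-month replicate 2 (0.60).

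**Figure D2:**
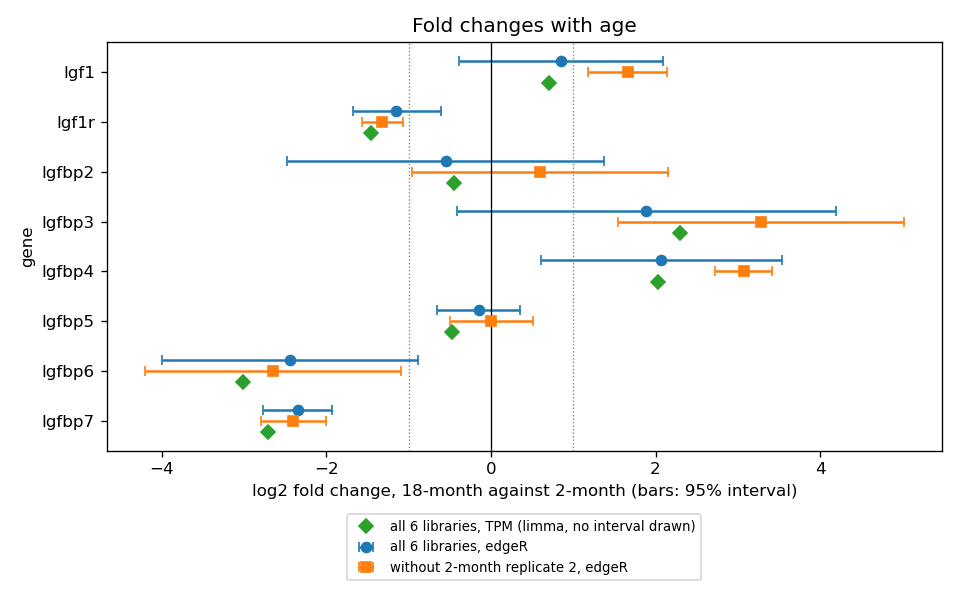
Log2 fold change of each gene, 18-month against 2-month, in edgeR with all 6 libraries (circles), in edgeR without 2-month replicate 2 (squares) and in limma on TPM (diamonds), with 95% intervals for edgeR. The intervals of Igf1, Igfbp3 and Igfbp4 moved up and narrowed without that library, whereas those of Igf1r, Igfbp6 and Igfbp7 stayed below 0.

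The order of the members by FPKM differed between the ages. At 2 months Igfbp7 (mean 208.4) stood above Igfbp5 (34.9), and Igfbp5, Igfbp4 (16.6), Igf1r (11.6) and Igfbp6 (11.2) followed with ranges that overlapped between neighbours. Below these came Igfbp3 (2.26), Igf1 (0.862) and Igfbp2 (0.405), again with overlap between neighbours. At 18 months the order was Igfbp4 (71.3), Igfbp7 (43.4), Igfbp5 (33.0), Igfbp3 (8.53), Igf1r (5.56), Igfbp6 (2.21), Igf1 (1.60) and Igfbp2 (0.278). All neighbours at 18 months were apart in their ranges except Igfbp6 and Igf1. Among all genes of the table, Igfbp7 went from rank 156 to 962 and Igfbp4 from rank 2205 to 553. Without 2-month replicate 2 the young mean of Igfbp4 was 7.95 (rank 4527), below those of Igf1r (12.98) and Igfbp6 (12.7).

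The makeup of the binding protein transcripts turned from Igfbp7 to Igfbp4. Igfbp7 held 81.7%, 68.7% and 79.0% of the summed FPKM of the 6 binding proteins at 2 months and 31.2%, 24.3% and 26.2% at 18 months. Igfbp4 held 3.55%, 11.6% and 2.56% at 2 months and 40.9%, 47.3% and 46.9% at 18 months. Both pairs of ranges were far apart. These shares compare genes within a library and so do not depend on the scaling between libraries. The share of Igfbp5 went from 12.6% ± 2.37 (SD, n = 3) to 20.8% ± 0.418, although its level did not pass the test. Taken from counts, which are not per length, the Igfbp5 share was 33.7%, 38.3% and 40.3% at 2 months and 34.5%, 33.1% and 32.3% at 18 months, so that the direction turned and the ages overlapped. The share of Igfbp3 went from 0.784% ± 0.877 to 5.39% ± 0.771 and that of Igfbp6 from 4.10% ± 1.19 to 1.37% ± 1.06. For these 5 shares of FPKM the ages did not overlap (4 with counts, without Igfbp5), and each gave p = 0.1 in a two-sided exact permutation test, the smallest that 3 libraries against 3 allow (0.12 after Benjamini-Hochberg adjustment over the 6 shares). The share of Igfbp2 was 0.141% and 0.176%, with overlap (exact permutation p = 0.7). The 6 shares are parts of the same sum, so a change in Igfbp7 shifts the others, and the 5 are not separate results. For levels of single genes, every 18-month library lay above every 2-month library in 33.9% of all genes tested, and below in 34.6%.

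**Figure D3:**
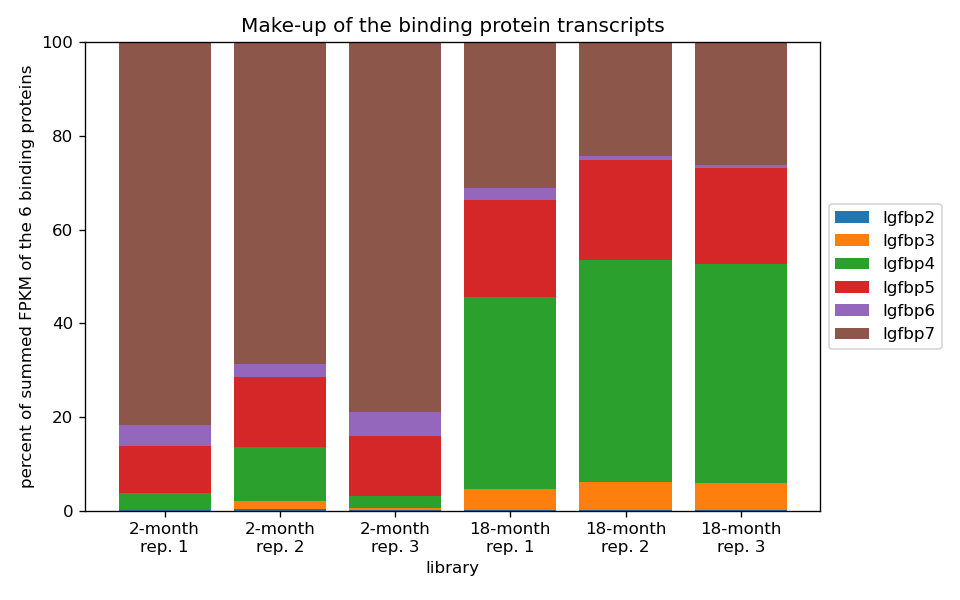
Percent of the summed FPKM of Igfbp2 to Igfbp7 held by each gene, with 1 stacked bar per library. Igfbp7 takes 68.7% to 81.7% of the bar at 2 months and 24.3% to 31.2% at 18 months, where Igfbp4 takes 40.9% to 47.3%.

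The ratio of Igfbp4 to Igfbp7 FPKM, also taken up after the values had been seen, was 0.0434, 0.169 and 0.0324 at 2 months and 1.31, 1.95 and 1.79 at 18 months. Igfbp7 thus exceeded Igfbp4 in every 2-month library, and Igfbp4 exceeded Igfbp7 in every 18-month library.

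The summed FPKM of the 6 binding proteins was 238.7, 291.6 and 290.9 at 2 months and 165.1, 150.8 and 160.3 at 18 months. The 18-month libraries lay below all 2-month libraries, with a log2 difference of -0.78 (exact permutation p = 0.1, the smallest possible). At 2 months Igfbp7 alone held 68.7% to 81.7% of this sum, so its fall weighs most in the difference, while Igfbp4 rose. The sum of the other binding proteins was not compared. The difference also rested on the scale. With TPM it was -1.22, and with TMM-scaled counts (CPM), in which a long transcript weighs more, it was 0.05 (exact permutation p = 0.9).

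Igf1 transcripts per 100 FPKM of binding proteins, a ratio within each library, were 0.171, 0.563 and 0.183 at 2 months and 0.944, 1.002 and 1.07 at 18 months. The ages did not overlap, and 2-month replicate 2 was the nearest of the young libraries. Igf1 itself overlapped between the ages, and Igfbp7 held 68.7% to 81.7% of the denominator at 2 months. The ratio without Igfbp7 was not taken, so the difference cannot be read as a change in Igf1. The log2 difference was 1.95 (exact permutation p = 0.1, the smallest possible), and 1.04 from counts, which are not per length.

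Other genes of the IGF pathway were read from lists grouped by role, which held 42 genes, of which 40 were in the table and 36 passed the filter. Of these 36 genes, 4 were called higher, 16 lower and 16 were not called. Over all genes tested, 14.9% were called higher and 21.3% lower, 36.3% in all, which is also the background for each list below. Without 2-month replicate 2, 6 of the same 36 genes were called higher and 16 lower, the gains being Adam12 (2.06) and Stc1 (2.59). Over all genes, 5007 of 21489 were then called higher and 4576 lower.

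The list of other ligands, receptors and binding partners had 0 of 4 tested genes higher and 2 lower (median log2 fold change -2.17). Igf2, the second IGF ligand, fell from an FPKM of 18.3 ± 4.87 (SD, n = 3) to 1.01 ± 0.375 (log2 fold change -4.26, SE 0.44, edgeR adjusted p = 0.00164). Igf2r, a receptor that takes up IGF2 for breakdown, fell from 22.7 ± 0.720 to 4.98 ± 1.19 (-2.28, SE 0.19, edgeR adjusted p = 0.00112). Insr, the insulin receptor, was at 5.20 and 5.81 (0.09, SE 0.15, edgeR adjusted p = 0.643). Igfbp1, which lies 3539 bases from Igfbp3, held 8 counts in 2-month replicate 1 and 0 in the other 5 libraries.

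The proteases that cut binding proteins, and the inhibitors of these proteases, had 0 of 9 tested genes higher and 5 lower (median -2.36). Pappa2, a protease of Igfbp3 and Igfbp5, held 1496, 1729 and 2449 counts at 2 months and 32, 0 and 13 at 18 months (log2 fold change -7.28, edgeR adjusted p = 0.00457). Stc2, an inhibitor of PAPP-A, fell from an FPKM of 29.0 ± 8.44 to 2.11 ± 1.16 (-3.88). Htra1 and Htra3, secreted serine proteases, fell by 2.88 and 2.70 on the log2 scale, and Timp3, an inhibitor of metalloproteinases, by 2.36. Pappa, the protease of Igfbp4, had an FPKM of 2.23 ± 1.08 and 1.53 ± 0.0785 and was not called (-0.60, SE 0.31, edgeR adjusted p = 0.152).

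The receptor adaptors and kinases moved both ways, with 2 of 13 called higher and 4 lower (median -0.66). With TPM, 1 was called higher and 7 lower (median -1.01), against 3109 higher and 5819 lower of all 21539 genes. Irs1, an adaptor that couples the receptor to PI3-kinase, fell from an FPKM of 13.98 ± 1.70 to 1.61 ± 0.0505 (log2 fold change -3.20, SE 0.15, edgeR adjusted p = 0.000706), and Irs2 fell by 1.38 on the log2 scale. The call of Irs2 was lost when any library other than 2-month replicate 2 was left out (edgeR adjusted p-values of 0.053 to 0.065). Grb10 and Grb14, adaptors known to restrain the insulin and IGF receptors, fell by 3.72 and 3.08. Grb2, an adaptor to the RAS pathway, rose by 1.3, and by 0.95 with TPM, where it was not called. Pik3cb, a catalytic subunit of PI3-kinase, rose by 1.68. Akt1 (0.74) and Akt2 (-0.70) had adjusted p-values below 0.05 but lay inside the fold limit, which Akt2 (-1.06) passed with TPM, as did the PI3-kinase subunits Pik3ca (-1.01) and Pik3r2 (-1.19).

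In the growth hormone axis, which drives Igf1 transcription in many tissues, 2 of 7 genes were called higher and 2 lower (median -0.08). Ghr, the growth hormone receptor, fell from an FPKM of 12.8 ± 2.51 to 2.00 ± 0.112 (log2 fold change -2.76, edgeR adjusted p = 0.000959). Socs2 fell by 1.71 while its relatives Socs3 and Cish, which also restrain cytokine receptors, rose by 1.49 and 3.70. Jak2, Stat5a and Stat5b did not pass the test. All 3 IGF2 mRNA-binding proteins were called lower, with Igf2bp2 at -3.76, Igf2bp1 at -3.03 and Igf2bp3 at -2.70. Of these, Igf2bp1 was near the floor, with 39 to 47 counts at 2 months and 4 to 8 at 18 months. Igf2bp3 was low too (mean FPKM 0.343 and 0.0538) and was not called by limma on log2(FPKM + 1), at -0.35.

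**Figure D4:**
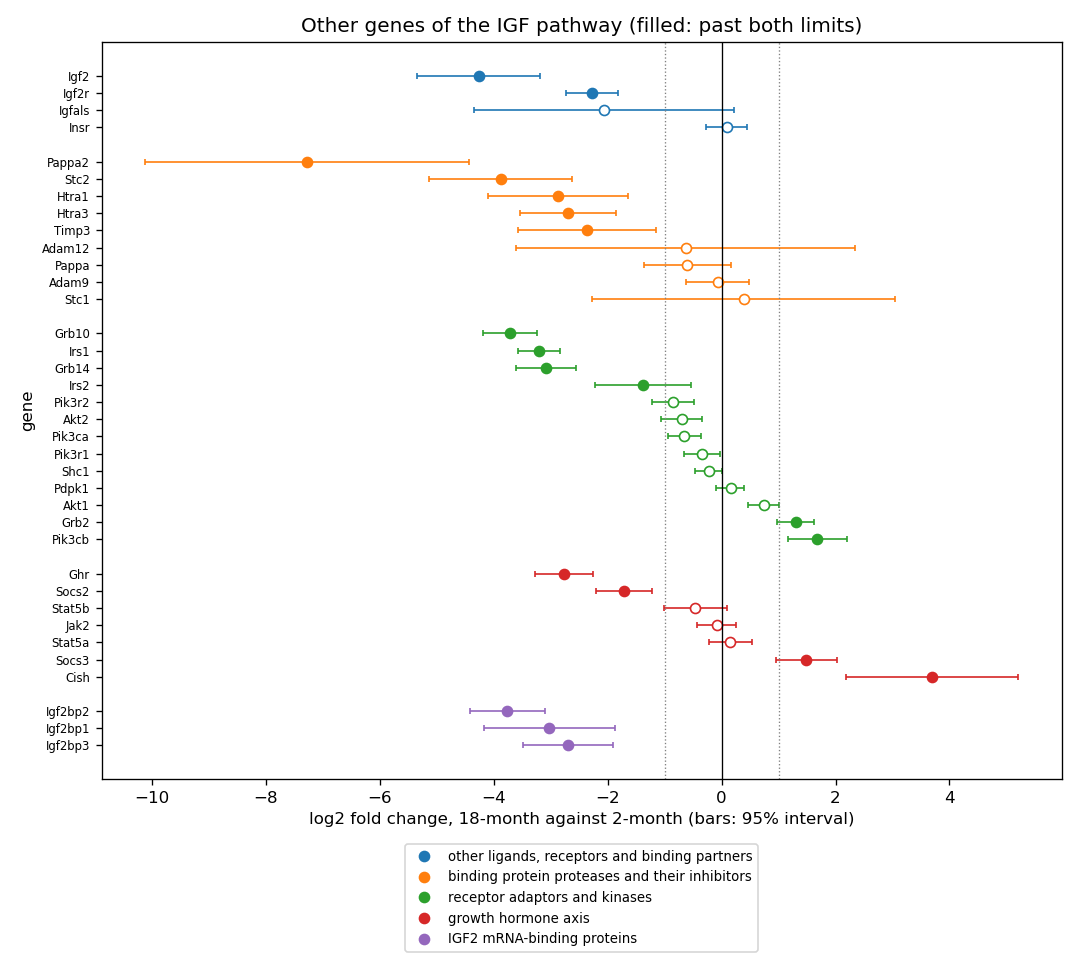
Log2 fold change of the 36 tested genes of the other IGF pathway lists, 18-month against 2-month (edgeR), grouped by role. Of them, 16 genes lie among those called lower, including Pappa2 at -7.28, and 4 among those called higher.

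The genes whose pattern over the 6 libraries was most like each member were sought among 13893 tested genes whose mean FPKM was 1 or more, by the root mean square difference of centred log2 CPM. For Igfbp7 they were Erbb2 and Rapgef4 (both 0.04), for Igfbp6 Gucy2g and Gm13071 (both 0.20), and for Igf1r Sertad2 (0.06) and Dmwd (0.07). For Igfbp4 they were Elmo1 (0.09) and Bpgm (0.11), for Igfbp3 Pimreg (0.14) and Cdk5r1 (0.22), and for Igf1 Renbp (0.07) and Wdr91 (0.10). For Igfbp5 they were Gm42547 (0.08) and mt-Tl2 (0.09), and for Igfbp2 Rai14 (0.22) and Mmp2 (0.24). Among the members themselves, Igfbp6 and Igfbp7 were nearest to each other (0.59), as were Igf1r and Igfbp5 (0.64), whose log2 fold changes were -1.15 and -0.15, and Igf1 and Igfbp4 (0.68). The 6 libraries of each pattern share their depth, age and cell makeup.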

How the data were processed

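Polyadenylated RNA of mouse articular cartilage was sequenced from strand-specific libraries with molecular identifiers, 3 at 2 months and 3 at 18 months. For every gene the authors deposited raw counts, as whole numbers, and FPKM values, scaled by transcript length and library total. The submitters' processing notes name cutadapt 1.9, HISAT2 2.0.4, UMI-tools, StringTie 1.3.4d, DESeq2 and edgeR, with no role given. The genome build and annotation are not given in the sources used here. The table's positions of all 8 genes were identical to those of GENCODE M21 (GRCm38). All 6 libraries were used and 0 columns of values were left out.

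The counts were analysed with edgeR 4.0.16 in R 4.3.3 (TMM, filterByExpr, quasi-likelihood test, no block), with Benjamini-Hochberg adjustment over all genes tested. Sums, ratios and shares were compared by two-sided exact permutation tests (SciPy 1.17.1). The alternatives were DESeq2 1.42.0, limma 3.58.1 on log2(FPKM + 0.1), log2(FPKM + 1) and log2(TPM + 0.1) (mean FPKM 0.1 or more), other scalings, no filter, a test against a fold change of 2, a replicate block and leaving out each library. Summing 18-month replicates 2 and 3 was added after seeing the data. Their marker sums were close (chondrocyte 40.3 and 41.1, neutrophil 44300 and 43650, erythroid 22900 and 23000). Whether these libraries are independent is not given in the labels. The tests were tested on simulated data. For edgeR these had far fewer changed genes than the real data and no library that stood apart from its group. They therefore do not show how edgeR handles a library like 2-month replicate 2. Promoters were read from RefSeq, and figures drawn with matplotlib 3.10.9.

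Named genes were all 8 members, genes of the pathway lists, the 2 genes most like each member and the most abundant gene of each marker list. Members and lists were chosen with earlier results of these data known, and 1 gene was taken out of the pathway lists and is not reported here.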

Additional observations from a re-analysis of the deposited data

How the results depend on the processing

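Over all genes, 7401 were called, and 5640 to 9583 with 1 library left out. A test against a fold change of 2 called 4033 genes and 1 member. With 1 library left out, 2 to 6 of the members were called instead of 4. The 6 came without 2-month replicate 2, where 9583 of all 21489 genes tested were called. With 18-month replicates 2 and 3 summed, 2 members and 5900 of all 21345 genes were called. Igfbp4 (edgeR adjusted p = 0.076) and Igfbp6 (edgeR adjusted p = 0.06) were then not called. The pathway lists had 20 calls, 19 with a replicate block (Irs2 lost, adjusted p = 0.065) and 19 to 23 with 1 library left out, the 23 including Insrr, which had not passed the filter with all libraries. Igfbp2 and Igfbp5 turned sign without 2-month replicate 2, with log2 fold changes of -1.01 to 0.60 and -0.34 to 0.0032 when 1 library was left out. The summed binding protein difference of -0.78 was -1.22 with TPM, 0.05 with TMM-scaled CPM, and -0.88 to -0.73 with 1 library left out. The log2 difference of Igf1 per binding protein FPKM was 1.64 to 2.5 with 1 library left out and 1.04 with counts. Shares without overlap between the ages, which are parts of the same sum, numbered 5, 4 with counts and 6 without 2-month replicate 2. Of all calls, 41.2% were higher, and 34.8% with TPM, 57.8% with limma on log2(FPKM + 1) and 52.2% without 2-month replicate 2. DESeq2 called 9556 genes.

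The replicate numbers did not pair the libraries (correlations of deviations 0.034, 0.044 and -0.024). With a replicate block 6032 genes and 4 members were called, the block gave Igf1 1.10 and Igfbp3 2.67, and it changed no call of a member. Igfbp2, with 10 to 95 counts, is the member that depth limits most.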
